A study of Arabidopsis thaliana with 12 samples.

Results

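The response of wild-type Col-0 Arabidopsis seedlings to 1 h of low oxygen alone was described from the 3 hypoxia/mock (HM) and the 3 normoxia/mock (NM) samples, which are 6 of the 12 samples of the series and were selected by their labels. In both groups 5 seedlings per sample were moved from agar with sucrose to liquid medium without an added elicitor, and at 10 days an equal volume of water stood in for flg22. HM seedlings were placed in anaerojars and NM seedlings stayed at ambient oxygen, and neither the oxygen level that was reached nor the light inside the jars is given in the sources used here. The other 6 samples, normoxia/flg22 (NF) and hypoxia/flg22 (HF), received the same oxygen treatments together with 100 nM flg22, a peptide of bacterial flagellin, and serve below as an oxygen contrast that shares no sample with HM vs NM. Polyadenylated RNA of whole seedlings was sequenced, so that a lower level in fewer cells of a type and less RNA per cell cannot be told apart.

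Plants sense low oxygen through the Arg/N-degron pathway. In air, plant cysteine oxidases (PCOs) use oxygen to oxidize the N-terminal cysteine of group VII ETHYLENE RESPONSE FACTORs (ERF-VIIs), which are then arginylated by ATE1 and ATE2 and degraded through the ubiquitin ligase PRT6. When oxygen falls, the ERF-VIIs are stable and activate a core set of hypoxia genes, whose products channel sugar through sucrose synthase and glycolysis and reoxidize NADH by ethanol and lactate fermentation. HM vs NM compares RNA levels 1 h after the onset of low oxygen, without an immune elicitor. The part of the ERF-VIIs in the differences was not tested.

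Total counts lay between 21493820 and 21544395 in HM and between 21455888 and 21554050 in NM, so depth hardly differed, and replicates of a group differed by far more than sampling noise (chi-square per degree of freedom of 49.2 or more in every pair of replicates). Shoot markers were abundant in all 6 samples, with a summed level of 24208 to 38847 CPM (normalized counts scaled to a total of 1e6 per sample), and all 10 root markers were detected in NM replicate 1. The summed root markers were uneven between replicates, with 525, 130.2 and 186 CPM in NM replicates 1, 2 and 3 and 319.7, 153 and 142 CPM in HM, and the iron transporter gene IRT1 was at 0 in NM replicate 2 and in HM replicates 2 and 3. HM and NM were compared within the 3 same-numbered pairs. Deviations from the group means correlated at 0.681 in pair 1 and 0.595 in pair 2. Pair 3 had only 0.264, below the 0.286 of NM replicate 2 with HM replicate 3. The pairs were not equally strong: 2915 genes differed by more than 1 on the log2 CPM scale in pair 1, 1585 in pair 2 and 1886 in pair 3. The 6 markers of flg22 exposure summed to 81.5, 73.2 and 297 CPM in NM and to 435, 97.5 and 301 CPM in HM, against 1183 to 3073 CPM in NF, so that NM replicate 3 and HM replicates 1 and 3 stood above the remaining mock samples without reaching the flg22-treated ones. Their part in the results was not tested.

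Of 20074 genes tested, 13 were differentially expressed genes (DEGs) in HM vs NM, which passed an adjusted p of 0.05 in edgeR's quasi-likelihood test and differed by more than 1.5-fold on the scale of the fitted log2 fold-change (log2FC) (0.0648% of genes). Hypoxia upregulated 12 of them (0.0598%) and downregulated 1 (0.00498%). They comprise genes of ethanol fermentation and oxygen sensing, transcription factors and genes of the cell wall, and in all 13 the HM samples did not overlap the NM samples, as was the case for 5.54% of all genes in the higher and 4.75% in the lower direction. Without the replicate block edgeR called 0 genes, with 779 higher and 412 lower at an unadjusted p under 0.05, and robust estimation of the dispersion also gave 0, whereas DESeq2 with the block called 475 genes (327 upregulated, 1.63%, and 148 downregulated, 0.737%), among them all 13. Data were simulated with the replicate effects of the blocked fit and a dispersion set by mean expression alone. On them DESeq2 with the block called 27 unchanged genes and edgeR with the block 7. These counts do not measure the error of either tool on the real samples. The count of 13 fell to 0 when any single NM sample or HM replicate 1 or 3 was left out and rose to 106 without HM replicate 2. The wider set with an unadjusted p under 0.05 held 1576 genes that were higher in HM (7.85%) and 1176 that were lower (5.86%), and scaling by library size alone turned this split to 881 higher and 1878 lower while it moved the median log2FC of all genes from 0.01 to -0.11. Genes of this wider set are given below with their values and are not called DEGs.

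The largest rise among the DEGs was that of PDC1 (AT4G33070), which encodes pyruvate decarboxylase, the enzyme that commits pyruvate to ethanol fermentation. PDC1 stood at 5.55, 0.743 and 1.08 CPM in NM replicates 1, 2 and 3 and at 392, 35.9 and 158 CPM in HM. It was thus close to absent in air, and replicate 1 was the highest in both groups. The log2FC of PDC1 was 6.39 (SE 0.85, adjusted p = 0.0434, edgeR), with 5.4 or more in every pair. LBD41, a LOB-domain transcription factor, had 21.6, 20.8 and 12.7 CPM in NM and 751, 306 and 689 CPM in HM. All HM samples of LBD41 lay far above NM, replicate 2 being the lowest of the HM samples, and its log2FC was 5.12 (SE 0.61, adjusted p = 0.0360). AT1G33055, a small gene of unknown function in the core hypoxia set, was even across the hypoxia samples, with 64.7, 65.3 and 59.6 CPM in HM against 1.85, 7.95 and 2.50 CPM in NM. Its groups did not overlap, and its log2FC was 4.36 (SE 0.45, adjusted p = 0.0360).

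Oxygen sensing itself was represented by PCO2 (AT5G39890), one of the cysteine oxidases that mark ERF-VIIs for degradation. Its level was 2.30, 1.90 and 1.25 CPM in NM and 41.6, 13.9 and 25.7 CPM in HM. The groups did not overlap, and the log2FC was 3.99 (SE 0.53, adjusted p = 0.0434). HRE1 (ERF73), an ERF-VII factor that is itself induced by low oxygen, rose from 11.4, 15.8 and 14.8 CPM to 86.2, 50.5 and 82.9 CPM. HRE1 was highest in HM replicates 1 and 3, and its log2FC was 2.43 (SE 0.31, adjusted p = 0.0428).

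**Figure D1:**
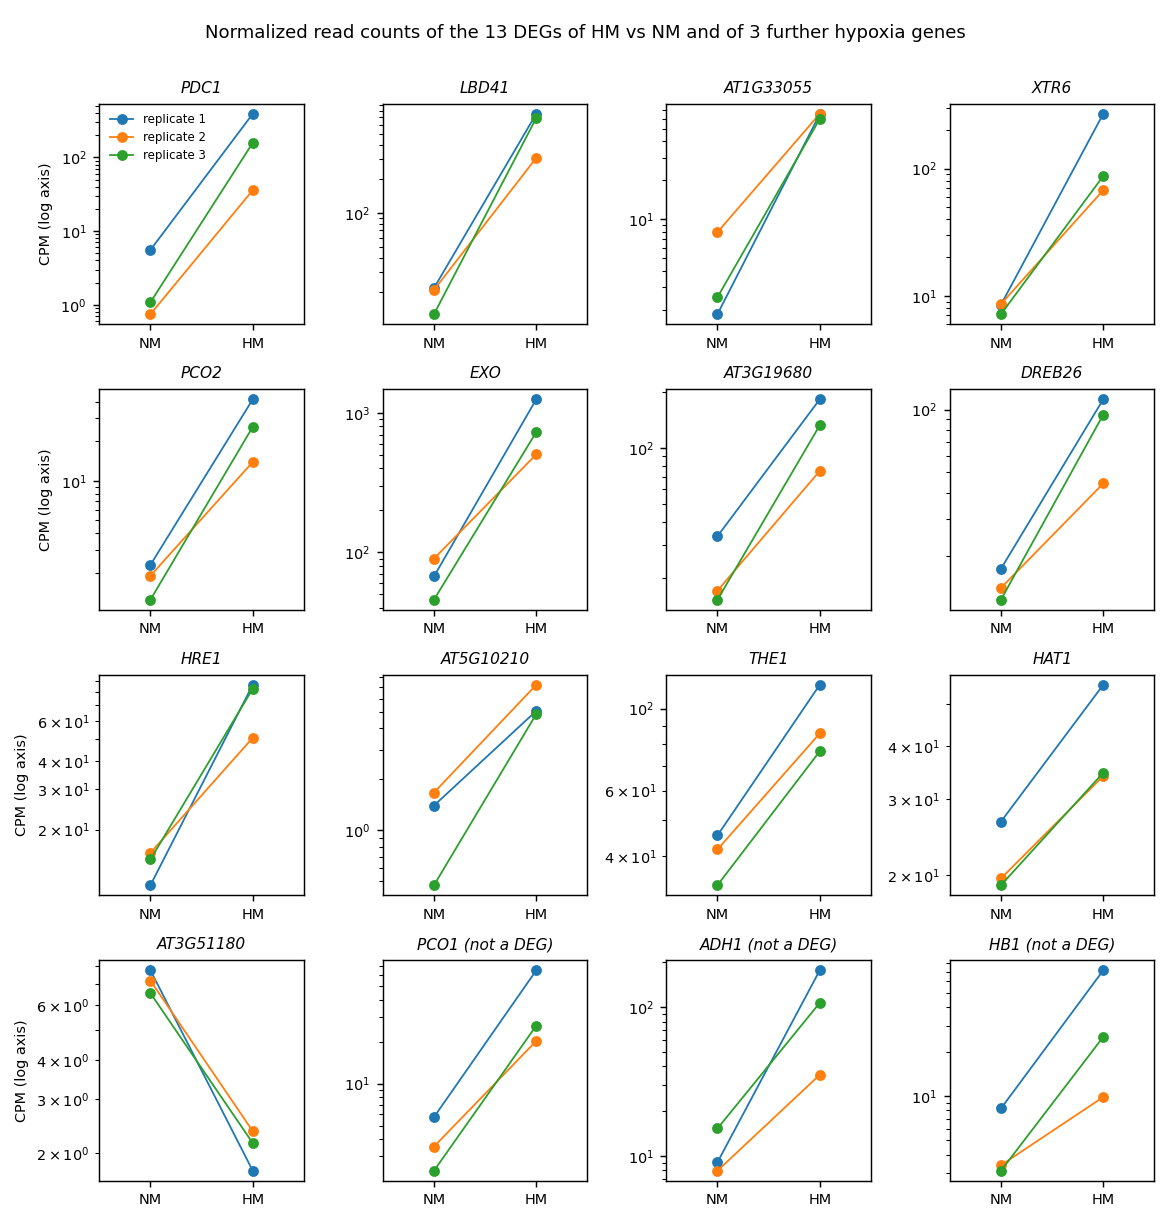
Normalized read counts (CPM, log axis that differs between panels) of the 13 DEGs and of PCO1, ADH1 and HB1 in each NM and HM sample, with a line for each same-numbered pair. In all 13 DEGs the HM points lie apart from the NM points, and AT3G51180 is the panel in which they lie below.

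The promoters of core hypoxia genes are known to carry a hypoxia-responsive element to which ERF-VIIs bind. A relaxed form of it, AAACCA with GC 3 bases further on, was searched on both strands in the 300 bases upstream of the annotated start (RefSeq annotation of TAIR10.1). It was found in 5 of 52 core hypoxia promoters (9.62%) and in 211 of all 20073 promoters (1.05%). Among the 12 upregulated DEGs only LBD41 held it, which says nothing of the others beyond these letters in this window. Among all 1576 genes that were higher at an unadjusted p under 0.05 the element was in 1.08% of promoters, and among the 1176 lower ones in 1.19%, both near the share of all promoters. It was 1 of 5 motifs searched in the same windows, with no test of any. The GCC box (GCCGCC) was in 9.62% of core hypoxia promoters against 2.42% of all, the G-box (CACGTG) in 13.5% against 7.92%, ACGCG in 9.62% against 8.47% and the core of the heat shock element (GAA and TTC with 2 bases between) in 13.5% against 11.3%. The 5 core hypoxia genes with the hypoxia element were LBD41, ADH1, NIP2;1, AT1G05575 and AT4G10270, a gene of the wound-responsive family. AT1G05575 was lower in HM in pair 2 (log2FC 1.80, adjusted p = 0.379), and the other four were higher in every pair. The windows of NIP2;1, AT1G05575 and AT4G10270 run into another annotated gene, so that only the stretch of AT4G10270 before that gene is printed and none of NIP2;1 and AT1G05575. The promoters of ADH1 and AT4G10270 are shown as examples of where the element lies. Sequences run 5′ to 3′ on the strand of the gene, with the element in capitals.
ADH1, chr1:28974955-28975254, plus strand, TAIR10.1, element 156 bases before the start: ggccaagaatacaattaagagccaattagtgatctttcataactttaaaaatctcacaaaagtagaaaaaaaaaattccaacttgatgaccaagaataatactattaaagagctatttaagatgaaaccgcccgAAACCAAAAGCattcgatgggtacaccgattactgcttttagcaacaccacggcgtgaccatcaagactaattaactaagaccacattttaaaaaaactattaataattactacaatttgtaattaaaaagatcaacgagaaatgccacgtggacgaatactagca
AT4G10270, chr4:6374434-6374673, plus strand, TAIR10.1, elements 90 and 220 bases before the start: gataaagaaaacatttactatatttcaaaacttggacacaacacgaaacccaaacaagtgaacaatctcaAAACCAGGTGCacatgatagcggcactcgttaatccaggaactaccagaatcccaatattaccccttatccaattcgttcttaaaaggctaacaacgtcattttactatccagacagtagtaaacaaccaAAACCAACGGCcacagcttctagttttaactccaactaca

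A second group of DEGs belongs to the cell wall and its signalling. EXO (EXORDIUM), which encodes an apoplastic protein linked to brassinosteroid-dependent growth, stood at 67.0, 89.9 and 45.6 CPM in NM and at 1253, 504 and 728 CPM in HM. All HM samples of EXO lay above NM, replicate 1 being the highest, and its log2FC was 3.60 (SE 0.40, adjusted p = 0.0360). XTR6 (XTH23), a xyloglucan endotransglucosylase that remodels cell wall polymers, had 8.49, 8.60 and 7.16 CPM in NM and 269.5, 67.6 and 87.3 CPM in HM. The NM samples of XTR6 were almost equal and HM replicate 1 stood above its fellow replicates, with a log2FC of 4.03 (SE 0.51, adjusted p = 0.0428). THE1 (THESEUS1), a receptor kinase that monitors cell wall integrity, was at 45.4, 41.6 and 33.3 CPM in NM and at 116, 85.7 and 76.7 CPM in HM. This rise was small but even, with a log2FC of 1.19 (SE 0.14, adjusted p = 0.0360).

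Transcription factors outside the ERF-VII group were also upregulated. DREB26, a member of the DREB branch of the ERF family, was at 17.3, 14.0 and 12.3 CPM in NM and at 112, 44.3 and 94.6 CPM in HM. Its log2FC was 2.50 (SE 0.30, adjusted p = 0.0360), and replicate 2 was again the lowest HM sample. HAT1, a homeodomain-leucine zipper factor, had the smallest rise among the DEGs, from 26.6, 19.6 and 18.9 CPM to 55.5, 34.0 and 34.6 CPM, with a log2FC of 0.91 (SE 0.10, adjusted p = 0.0360). Of the remaining upregulated DEGs AT3G19680, a protein with a domain of unknown function, had 33.5, 17.1 and 15.3 CPM in NM and 182, 75.1 and 132 CPM in HM (log2FC 2.62). AT5G10210, annotated as a nitric oxide synthase-interacting protein, was rare, with 1.40, 1.67 and 0.474 CPM in NM and 5.07, 7.23 and 4.86 CPM in HM (log2FC 2.37). The only downregulated DEG was AT3G51180, a zinc finger gene of the CCCH type, at 7.77, 7.20 and 6.56 CPM in NM and 1.76, 2.36 and 2.16 CPM in HM. Its log2FC was -1.80 (SE 0.24, adjusted p = 0.0434), and the replicates of each group were close to each other.

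The 10 genes next in order of p had an adjusted p of 0.0527, a value that HSFB2A shared, and all 10 were higher in HM. Of these, 8 had groups that did not overlap (against 5.54% of all genes in this direction). In DESeq2 with the block 10 were DEGs (against 1.63% of all genes upregulated). They included CYP707A1 and CYP707A3, which encode abscisic acid 8'-hydroxylases that break down this hormone. CYP707A3 had 8.98, 1.77 and 4.05 CPM in NM and 146, 15.6 and 70.0 CPM in HM (log2FC 3.86), and CYP707A1 had 1.66, 2.46 and 1.47 CPM against 12.4, 6.88 and 9.45 CPM (log2FC 2.38). PCO1 (AT5G15120), the closest relative of PCO2, was at 5.74, 3.53 and 2.37 CPM in NM and at 64.8, 20.2 and 26.0 CPM in HM (log2FC 3.29). RALFL22, a secreted peptide of the family that signals through receptor kinases related to THE1, and EXL5, an EXORDIUM-like gene, had a log2FC of 1.30 and 1.52, and in both NM replicate 1 overlapped the HM samples. ERF13 (log2FC 4.07) and the wound-responsive gene AT4G10265 (log2FC 6.28) were nearly absent in NM, with at most 0.151 and 0.415 CPM, so that their fold-changes rest on few counts.

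Among genes that averaged 50 or more counts, had an unadjusted p under 0.05 and moved alike in all pairs, the 12 with the highest log2FC ranged from 4.14 to 6.60, and 9 of them were core hypoxia genes. The highest was NIP2;1, an aquaporin-like channel that exports lactic acid, with 0.792, 0.186 and 0.0863 CPM in NM and 82.8, 3.26 and 22.6 CPM in HM. The groups did not overlap, but HM replicates 1 and 2 of NIP2;1 differed widely, and the adjusted p was 0.0884 (log2FC 6.60, SE 1.21). AUF2, an F-box gene, and AT4G02170 were among those outside the core list, with a log2FC of 4.49 and 5.49. All 12 genes also had an unadjusted p under 0.05 in the same direction in HF vs NF.

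The 12 genes with the lowest log2FC by the same rule ranged from -3.88 to -1.88, and 7 of them had groups that did not overlap. In HF vs NF all 12 had the same sign, and 8 had an unadjusted p under 0.05. The lowest, AT4G36700, had a log2FC of -0.08 in HF vs NF. It was at 0 CPM in HM replicates 2 and 3, and its HM and NM groups overlapped. PPCK1, the kinase that activates phosphoenolpyruvate carboxylase, had 10.3, 2.97 and 5.56 CPM in NM and 1.07, 2.11 and 0.63 CPM in HM (log2FC -2.08, adjusted p = 0.252). EXPA15, an expansin that loosens cell walls, was at 28.4, 1.02 and 7.94 CPM in NM and at 2.58, 0.703 and 1.35 CPM in HM (log2FC -2.55), and here the groups overlapped because NM replicate 2 was low. RGF9, a root meristem growth factor peptide, had 22.6, 2.04 and 9.14 CPM against 3.31, 0.954 and 2.43 CPM (log2FC -2.03), also with overlap. AT1G30080, a glycosyl hydrolase, had the smallest adjusted p of the 12, with 10.5, 2.32 and 5.43 CPM in NM and 1.63, 1.20 and 1.39 CPM in HM (log2FC -1.97, adjusted p = 0.0787). In all 12 genes NM replicate 1, the sample with the highest root markers, had the highest level of the NM and HM samples. The part of organ composition was not tested.

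The core hypoxia list holds 53 genes, most of which low oxygen induces in many cell types, of which 52 were tested. Of these, 51 had a positive log2FC, 46 were higher in all 3 pairs (88.5%, against 23.5% of all genes) and 44 had an unadjusted p under 0.05 (84.6%, against 7.85% of all genes), while 0 were lower at that level. Upregulated DEGs numbered 5 of 52 (against 0.0598% of all genes), and 30 of 52 in DESeq2 with the block (against 1.63%). The median log2FC was 1.79, against 0.01 for all genes, and it was 2.56, 1.01 and 1.58 in pairs 1, 2 and 3. In 40 of 52 members the difference was largest in pair 1. The summed level was 945, 2129 and 1669 CPM in NM and 6349.9, 4090.4 and 4602 CPM in HM, without overlap. AT5G45960 was the member with a negative log2FC (-0.15).

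**Figure D2:**
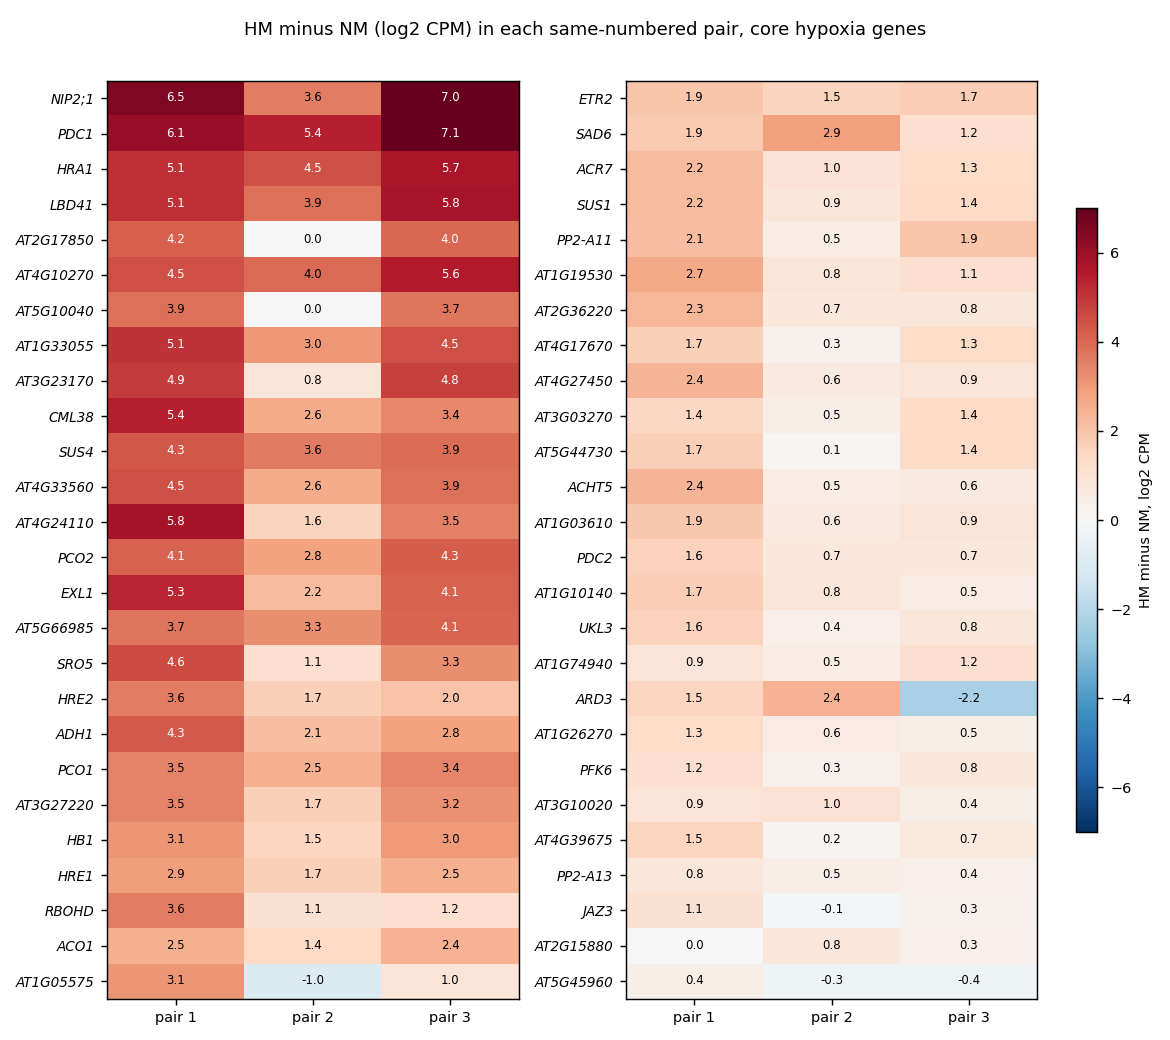
HM minus NM on the log2 CPM scale (colour and printed value) in pairs 1, 2 and 3 for the 52 tested core hypoxia genes, ordered by fitted log2FC and continued in the right panel. NIP2;1 and PDC1 are at the top, and pair 2 is the palest column for most genes.

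Members of the core list with other roles showed how the response was spread. HRA1 (AT3G10040), a trihelix factor that restrains the ERF-VII RAP2.12, stood at 12.1, 3.86 and 3.80 CPM in NM and at 427, 87.6 and 204 CPM in HM (log2FC 5.30, adjusted p = 0.0634). HB1, a haemoglobin that scavenges nitric oxide, was at 8.23, 3.39 and 3.11 CPM in NM and at 71.3, 9.84 and 25.2 CPM in HM (log2FC 2.80, adjusted p = 0.125). In both genes the groups did not overlap and the rank of the replicates was led by replicate 1. EXL1 (PHI-1), an EXORDIUM-like gene required under carbon limitation, was at 10.4, 37.4 and 15.3 CPM in NM and at 422, 173 and 272 CPM in HM (log2FC 3.92, adjusted p = 0.0649). Weak members were PP2-A13 (log2FC 0.52), JAZ3 (0.42) and AT2G15880 (0.39), all without an unadjusted p under 0.05. AT2G17850 and AT5G10040 were at 0 in NM replicates 2 and 3 and in HM replicate 2, and no fold-change is given for them.

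Fermentation genes differed in size by step. For ethanol, ADH1, the alcohol dehydrogenase that follows pyruvate decarboxylase, stood at 9.06, 7.95 and 15.3 CPM in NM and at 177, 35.1 and 107 CPM in HM. The groups of ADH1 did not overlap, yet with a log2FC of 3.31 (SE 0.70) the adjusted p was 0.129. PDC2, another pyruvate decarboxylase gene, was expressed in air as well, with 74.4, 65.9 and 118 CPM in NM and 231, 110 and 195 CPM in HM (log2FC 1.04), and its groups overlapped. PDC3 was rare and had the opposite sign in all pairs, with 2.45, 0.186 and 0.474 CPM in NM and 0.558, 0.0502 and 0.360 CPM in HM (log2FC -1.42, unadjusted p = 0.0568, adjusted p = 0.376, edgeR). AT4G17260, annotated to the lactate/malate dehydrogenase family, was at 21.9, 10.0 and 9.19 CPM in NM and at 75.4, 12.4 and 26.9 CPM in HM (log2FC 1.34). For alanine, which accumulates in place of lactate in many plants, ALAAT1 had a log2FC of 0.95 and ALAAT2 of 0.50, both with HM above NM in all samples. The aldehyde dehydrogenases ALDH2B4 (log2FC 0.38) and ALDH2B7 (-0.19) and the glutamate decarboxylases GAD1 and GAD2 (0.13 each) did not reach an unadjusted p under 0.05. Over the 13 genes of fermentation, alanine and GABA the median log2FC was 0.56. An unadjusted p under 0.05 was reached by 6 higher genes (46.2%, against 7.85% of all genes) and 0 lower ones.

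In sugar entry and glycolysis, the 6 genes that were higher at an unadjusted p under 0.05 were sucrose synthases and phosphofructokinases. Sucrose synthases cleave sucrose with less ATP than invertase needs: SUS4 stood at 4.91, 0.511 and 0.906 CPM in NM and at 102, 7.28 and 15.1 CPM in HM (log2FC 4.14, adjusted p = 0.129). SUS1 was at 21.2, 16.5 and 21.7 CPM in NM and at 99.9, 30.1 and 56.6 CPM in HM (log2FC 1.63, adjusted p = 0.269), and in neither gene did the groups overlap. SUS3 had a log2FC of 0.74 at an unadjusted p under 0.05, and SUS2, SUS5 and SUS6 had a log2FC between -0.27 and -0.14. Of the phosphofructokinases, which control entry into glycolysis, PFK3 (log2FC 1.42), PFK6 (0.78) and PFK2 (0.58) were higher at an unadjusted p under 0.05, and PFK1 (0.02) and PFK7 (-0.30) were not. The 7 members from triose phosphate isomerase to enolase had a log2FC between -0.23 and 0.09, with 0 at an unadjusted p under 0.05, as in GAPC2, which was at 1215, 929 and 1057 CPM in NM and at 1107, 986 and 960.2 CPM in HM. Over all 22 genes the median log2FC was 0.02, with 6 genes higher at that level (27.3%, against 7.85% of all genes). The 1 lower gene (4.55%, against 5.86%) was hexokinase HXK1 (log2FC -0.34).

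The oxygen-sensing machinery consists of constitutive and inducible members. PCO1 and PCO2 were higher in HM in every sample, whereas PCO3 (log2FC -0.04), PCO4 (-0.03) and PCO5 (0.30), known as the constitutive members, had no unadjusted p under 0.05. ATE1 (0.11), ATE2 (0.30) and PRT6 (0.17) had small log2FC without an unadjusted p under 0.05. Among the ERF-VII genes RAP2.12 stood at 112, 208 and 185 CPM in NM and at 138, 213 and 209 CPM in HM (log2FC 0.17), RAP2.3 had a log2FC of 0.47, and RAP2.2 had 0.39 with an unadjusted p of 0.00527. The inducible ERF-VII gene HRE2 (ERF71) was at 0.453, 0.0465 and 0.129 CPM in NM and at 6.35, 0.351 and 0.81 CPM in HM (log2FC 3.32), with overlap between HM replicate 2 and NM replicate 1. The median log2FC of the 13 genes was 0.30. Of these, 5 were higher (38.5%, against 7.85% of all genes) and 0 lower at an unadjusted p under 0.05.

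**Figure D3:**
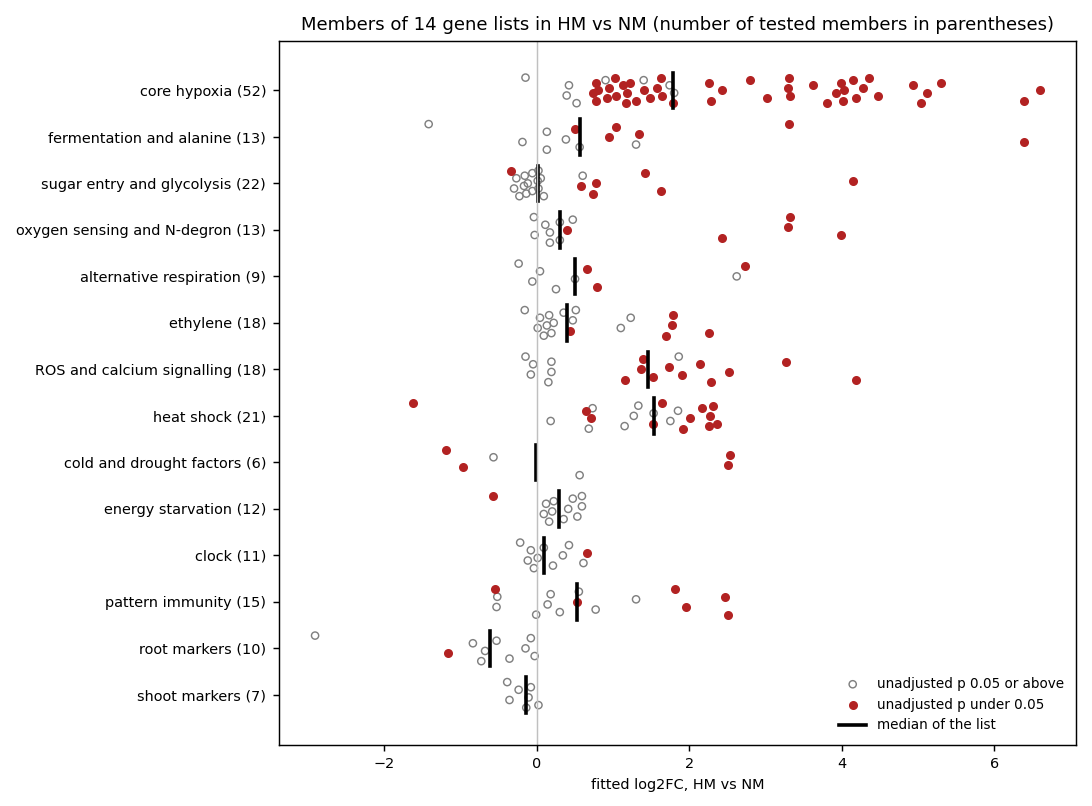
Fitted log2FC in HM vs NM of every tested member of 14 gene lists (filled points, unadjusted p under 0.05; vertical bar, median of the list). The core hypoxia list lies at a median of 1.79 with 1 member below 0, while most members of the glycolysis, clock and shoot marker lists lie near 0.

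Ethylene, a gas that accumulates around submerged tissue and stabilizes oxygen-labile factors through haemoglobin, was represented by 18 genes. ACO1, which makes ethylene from its precursor, was at 7.62, 2.93 and 4.14 CPM in NM and at 42.6, 7.98 and 22.4 CPM in HM (log2FC 2.26, adjusted p = 0.216). ETR2, an ethylene receptor, was at 17.9, 12.7 and 12.2 CPM in NM and at 69.4, 37.2 and 40.9 CPM in HM (log2FC 1.78, adjusted p = 0.0877). Both genes had HM samples above all NM samples, and the differences in ETR2 were close to each other in all pairs. The synthase genes ACS6 (log2FC 1.77) and ACS11 (1.69) were higher at an unadjusted p under 0.05 with overlapping groups, and the receptor gene ERS2 had a log2FC of 0.44. The transcription factor gene EIN3 (0.22) and the F-box genes EBF1 (-0.16) and EBF2 (0.04) had no unadjusted p under 0.05. The median log2FC was 0.39, and it was 0.13 without replicate 1. In this list 5 of 18 genes were higher (27.8%, against 7.85% of all genes) and 0 lower at an unadjusted p under 0.05.

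Heat shock genes differed between replicates. Of 24 chaperone and heat shock factor genes 21 were tested, with a median log2FC of 1.53. Among the 21, 11 were higher at an unadjusted p under 0.05 (52.4%, against 7.85% of all genes). The 1 lower gene at that level (4.76%, against 5.86%) was HSP18.2 (log2FC -1.62). In DESeq2 with the block 7 of the 21 were upregulated DEGs, against 1.63% of all genes. The summed level of the 21 genes was 96.3, 121 and 113 CPM in NM and 221, 849 and 161 CPM in HM. HM replicate 2 thus stood apart. HSP70 (AT3G12580), a cytosolic chaperone, had 11.2, 10.6 and 12.2 CPM in NM and 31.1, 286 and 13.9 CPM in HM. HSP90.1 had 7.32, 12.0 and 8.97 CPM in NM and 20.1, 184 and 15.3 CPM in HM. HM was above NM in all samples of HSP70 and HSP90.1, but the difference was by far the largest in pair 2. The heat shock factor genes were of both kinds. MBF1C, a transcriptional coactivator of the heat response, was at 1.51, 4.23 and 1.85 CPM in NM and at 4.94, 78.9 and 3.24 CPM in HM, and HSFA2 was at 0.340 CPM or less in NM and at 0.215, 3.97 and 0.360 CPM in HM, so that HM replicate 2 was far above the others in both and the groups overlapped. HSFB2A, of the class that represses heat shock genes, was at 4.45, 13 and 9.23 CPM in NM and at 22.8, 27.6 and 21.4 CPM in HM (log2FC 1.52, adjusted p = 0.0527). HSFB2B had a log2FC of 1.64 and HSFA3 of 0.71, both without overlap. The same replicate number was high in HF, where the summed level was 261, 1568 and 256 CPM. Without replicate 2 the median log2FC was 1.13.

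Genes of reactive oxygen and calcium signalling had a median log2FC of 1.46. Of 18 tested genes 11 were higher (61.1%, against 7.85% of all genes) and 0 lower at an unadjusted p under 0.05. RBOHD, the NADPH oxidase that makes superoxide at the plasma membrane in immunity and in hypoxia, was at 66.9, 28.6 and 55.3 CPM in NM and at 793, 60.7 and 125 CPM in HM (log2FC 2.28, adjusted p = 0.249). The groups of RBOHD overlapped, since HM replicate 2 lay below NM replicate 1. CML38, a calmodulin-like protein of hypoxia granules, was at 2.19, 1.63 and 3.54 CPM in NM and at 99.2, 10.3 and 37.2 CPM in HM (log2FC 4.18, adjusted p = 0.106), without overlap. CML12 (TCH3), a touch-induced calmodulin-like gene, stood at 311, 189 and 263 CPM in NM and at 1707, 489 and 516 CPM in HM (log2FC 1.73). The zinc finger genes ZAT10, ZAT6 and ZAT12 had a log2FC of 2.14, 1.90 and 1.52, the kinase gene MPK3 of 1.39, and the oxidase genes RBOHF and RBOHC of 0.19 and -0.08. HM replicate 1 was the highest sample in most of these genes, with a summed level of the list of 3747 CPM against 909 and 1258 CPM in HM replicates 2 and 3 and 501 to 655 CPM in NM. Without HM replicate 1 the median log2FC was 0.56.

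Genes of pattern-triggered immunity (PTI), the defence response that flg22 elicits, were measured here without flg22. WRKY33, a transcription factor of camalexin synthesis, was at 46.1, 26.3 and 60.0 CPM in NM and at 647, 60.8 and 165 CPM in HM (log2FC 2.51, adjusted p = 0.238), with HM just above NM. WRKY40 was at 9.66, 9.52 and 18.5 CPM in NM and at 241, 12.8 and 39.0 CPM in HM (log2FC 2.47), and CYP81F2, an enzyme of indole glucosinolates, at 27.7, 20.9 and 55.9 CPM in NM and at 352, 40.2 and 64.9 CPM in HM (log2FC 1.96), both with overlap. HM replicate 1 was the highest sample in WRKY33, WRKY40 and CYP81F2. The receptor gene FLS2, which binds flg22, was lower in HM, with 63.0, 38.6 and 49.5 CPM in NM and 39.2, 24.1 and 40.1 CPM in HM (log2FC -0.55, unadjusted p = 0.0427, adjusted p = 0.350), and the difference had the same sign in all 3 pairs. Its co-receptor gene BAK1 had a log2FC of 0.53, the receptor gene EFR of 0.14 and CERK1 of 0.30. FRK1, a flg22 marker, was at 38.3 CPM in NM replicate 3 and 46.4 CPM in HM replicate 3 but at 2.53 CPM or less in the other mock samples. Over 15 genes the median log2FC was 0.53, and it was 0.00 without HM replicate 1. Of these 15, 5 were higher (33.3%, against 7.85% of all genes) and 1 lower (6.67%, against 5.86%) at an unadjusted p under 0.05.

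**Figure D4:**
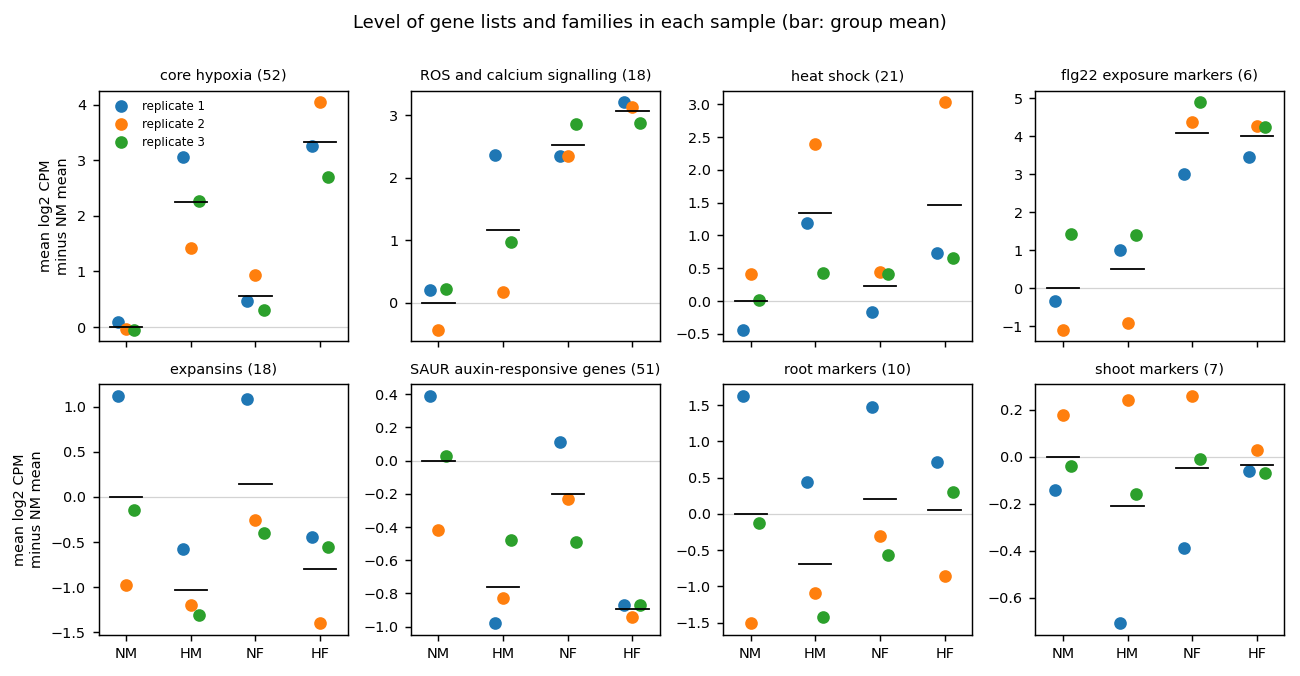
Mean log2 CPM of the tested members of 8 lists and families in each of the 12 samples, relative to the mean of the NM samples (point, sample; bar, group mean; number of genes in the panel title). HM lies above NM in every replicate for the core hypoxia genes, HM replicate 1 is the highest HM sample for reactive oxygen and calcium signalling, and replicate 2 is the highest HM and HF sample for heat shock.

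Among other stress and metabolic lists, the energy starvation list, which holds SEN1, ASN1 and DIN10 and the trehalose phosphate synthase-like genes, had a median log2FC of 0.29. At an unadjusted p under 0.05, 0 of its 12 genes were higher, against 7.85% of all genes. The 1 lower gene (8.33%, against 5.86%) was TPS5 (log2FC -0.57). ASN1, asparagine synthetase, was at 276, 2683 and 1131 CPM in NM and at 744, 3486 and 1155 CPM in HM, so that replicates of a group differed more than the groups did. For alternative respiration 9 of 14 genes were tested, with a median of 0.50. AOX1A, the alternative oxidase, was at 18.8, 32.6 and 43.3 CPM in NM and at 48.1, 43.8 and 61.7 CPM in HM (log2FC 0.79, adjusted p = 0.274), without overlap. OM66 (BCS1), an outer mitochondrial membrane protein of stress signalling, was at 7.09, 1.44 and 1.55 CPM in NM and at 57.5, 6.07 and 12.4 CPM in HM (log2FC 2.73, adjusted p = 0.118). Clock genes had a median of 0.09, with LUX (log2FC 0.66) as the only member at an unadjusted p under 0.05 of 11. This share of 9.09% is near the 7.85% of all genes. Among the cold and drought genes the effector genes COR15A (log2FC -1.19) and RD29A (-0.97) were lower and the factor gene CBF2 (2.53) was higher at an unadjusted p under 0.05, beside the DEG DREB26. KIN1 (-0.57) and DREB2A (0.56) did not reach it. Of the 6 cold and drought genes tested 33.3% were thus higher (against 7.85% of all genes) and 33.3% lower (against 5.86%).

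Gene families were grouped by symbol or product description after the values were seen, and are described without a test. Of 18 expansins tested 17 had a negative log2FC, with a median of -1.07 and 8 lower (44.4%, against 5.86% of all genes) and 0 higher at an unadjusted p under 0.05. EXPA1 was at 88.9, 58.4 and 49.4 CPM in NM and at 21.2, 20.7 and 20.3 CPM in HM (log2FC -1.60, adjusted p = 0.168). EXPA9 had 20.6, 14.0 and 18.2 CPM in NM and 6.40, 9.24 and 10.2 CPM in HM (log2FC -1.03), and in neither gene did the groups overlap. The expansins as a whole did overlap, with a summed level of 432, 145 and 196 CPM in NM and 152, 88.0 and 90.1 CPM in HM, and NM replicate 1 was highest, as it was for the root markers. The median log2FC was -0.74 without replicate 1. SAUR genes, small auxin-induced growth genes, had a median of -0.90 over 51 tested members. An unadjusted p under 0.05 was reached by 18 lower (35.3%, against 5.86% of all genes) and 3 higher members (5.88%, against 7.85%). AT1G29430 was among the lower ones, with 8.11, 1.81 and 6.04 CPM in NM and 0.343, 0.452 and 1.12 CPM in HM (log2FC -2.90). AT1G72430 was among the 11 members with a positive log2FC, with 76.9, 69.3 and 50.2 CPM in NM and 267, 177 and 249 CPM in HM (log2FC 1.87, adjusted p = 0.0527). This gene made up 267 of the summed 373 CPM of the SAUR genes in HM replicate 1, against 76.9 of 280.2 CPM in NM replicate 1, so the summed level was higher in HM although most members were lower. The median of the SAUR genes with at least 10 counts in every sample was -0.07.

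The 26 tested genes with an XTH symbol, which do not include XTR6, had a median of 0.05. Of these, 7 were higher (26.9%, against 7.85% of all genes) and 4 lower (15.4%, against 5.86%) at an unadjusted p under 0.05. XTH18 was at 28.5, 8.87 and 16.3 CPM in NM and at 401, 38.1 and 114 CPM in HM (log2FC 3.21, adjusted p = 0.168), without overlap, and XTH7 was at 92.3, 46.2 and 62.0 CPM in NM and at 54.9, 24.5 and 18.4 CPM in HM (log2FC -1.12). Members of this family thus lay on both sides of 0. Of 55 WRKY genes 14 were higher (25.5%, against 7.85% of all genes) and 1 lower (1.82%, against 5.86%) at an unadjusted p under 0.05. Of 59 NAC genes 6 were higher (10.2%) and 4 lower (6.78%), close to these shares of all genes. NAC083 was the clearest of the lower NAC genes, with 71.5, 80.8 and 81.2 CPM in NM and 28.2, 45.5 and 40.1 CPM in HM (log2FC -1.06, adjusted p = 0.168). The 175 tested genes described as ribosomal proteins had a median of -0.06 with 2 higher and 2 lower (1.14% each, against 7.85% and 5.86% of all genes). The 13 light-harvesting protein genes had a median of -0.24, of which pair 1 gave -0.93 and pairs 2 and 3 gave 0.05 and -0.01.

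To ask how far hypoxia alone resembled hypoxia with flg22 present, each gene was set beside its value in HF vs NF, which uses other samples but shares the replicate block and the dispersion estimate. HF vs NF had 21 DEGs (17 upregulated, 0.0847%, and 4 downregulated, 0.0199%), with 1307 genes higher (6.51%) and 1210 lower (6.03%) at an unadjusted p under 0.05. All 13 DEGs of HM vs NM had the same sign and an unadjusted p under 0.05 there. PDC1 had a log2FC of 7.33, LBD41 of 3.96, PCO2 of 4.02 and AT3G51180 of -2.22 in HF vs NF. Core hypoxia genes had a median of 2.26, with 46 of 52 higher at an unadjusted p under 0.05 and 9 DEGs. The difference between both oxygen contrasts was not significant for any gene in edgeR (0 genes at an adjusted p under 0.05), with 346 genes (1.72%) above in HM vs NM and 152 (0.757%) above in HF vs NF at an unadjusted p under 0.05, and DESeq2 with the block called 7. Within the reactive oxygen and calcium list the median log2FC was 1.46 in HM vs NM. It was uneven there, with 2.41, 0.40 and 0.92 in pairs 1, 2 and 3. In HF vs NF the median was 0.44, and 2 of 18 genes were higher at an unadjusted p under 0.05. The summed level of the members in NF was 3649 to 6244 CPM, and the part of this level in the smaller median was not tested. Of the 18 members 1 had an unadjusted p under 0.05 for the difference. For PTI genes the medians were 0.53 (0.97, 0.18 and 0.21 in pairs 1, 2 and 3) and -0.05. Without HM replicate 1 the HM vs NM medians of the PTI and the reactive oxygen lists were lower, as given above. FLS2 had a log2FC of -1.03 and EFR of -0.72 in HF vs NF. For heat shock the medians were 1.53 and 1.34.

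**Figure D5:**
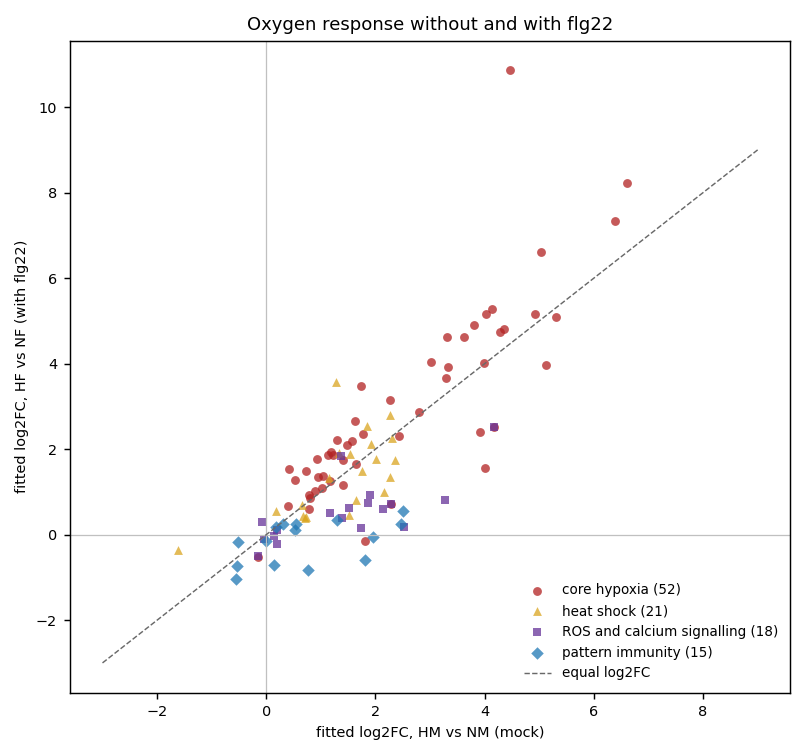
Fitted log2FC in HM vs NM (horizontal) against HF vs NF (vertical) for the members of 4 lists (number of genes in the legend; dashed line, equal values). Core hypoxia and heat shock genes scatter around the line, whereas most reactive oxygen and calcium genes with a log2FC above 1 in HM vs NM lie below it, and the highest point is AT5G10040, which rests on few counts. The HM vs NM median of the reactive oxygen and calcium genes was 2.41 in pair 1, against 0.40 and 0.92 in pairs 2 and 3.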

How the data were processed

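Reads had been cleaned with SOAPnuke and mapped by HISAT (the labels name TAIR10), and the authors deposited an expected count per gene for 23396 genes. The counting tool and its use of strand are not given in the sources used here, so overlapping or similar genes may share reads. Expected counts (2.3% not whole) were rounded, since the tests had been planned for counts. Group-mean columns were not used. All identifiers matched the RefSeq table of TAIR10.1, the source of names, positions and promoters.

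Counts were scaled with TMM (0.828 to 1.23), filtered with filterByExpr (minimum count 10) and fitted with edgeR 4.0.16 (R 4.3.3) over all 12 samples with group and replicate number as terms, and p-values were adjusted over all genes (Benjamini-Hochberg). The pairing follows the replicate numbers of the labels, and deviations of same-numbered NM and HM samples correlated at 0.681, 0.595 and 0.264. Differently numbered NM and HM samples correlated at -0.675 to 0.286. Same-numbered NF and HF samples correlated at 0.541, 0.514 and -0.111. The labels do not say what a number shares, and p-values measure the spread between these samples. CPM were scaled to effective library size, with a prior count of 2 on the log2 scale. Simulated data for HM vs NM (19818 genes) gave 51% recovery of genes changed by 1 and 99% of those changed by 2 on the log2 scale, with 7 unchanged genes called. Without the block edgeR recovered 3% and 69% with 0 unchanged genes called, and DESeq2 with the block recovered 55% and 99% with 27 unchanged genes called. The simulated counts carried the replicate effects of the blocked fit. The lower recovery without the block was thus built in and cannot show whether the block is right for the real samples.

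Genes were named as all DEGs and the 10 next by adjusted p, the 12 highest and 12 lowest log2FC under the rule given in the text, and list members by role. Members and lists were chosen with earlier results of these data known. Alternatives were no replicate block, fewer groups in the fit, DESeq2 1.42.0, other scalings and count filters, robust estimation, no log2FC cutoff and samples left out. Promoters were searched for 5 motifs, and some items are not reported here. DESeq2 with the block on HM and NM samples only was chosen after seeing the data.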

Additional observations from a re-analysis of the deposited data

Results flagged for a closer look

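In 3 flagged genes every same-numbered pair moved one way in HM vs NM and the opposite way in HF vs NF. The share of all tested genes that did so is not given here. In HM vs NM, 23.5% of all genes were higher and 20.2% lower in all 3 pairs. These shares cover HM vs NM alone and are no background for opposite movement. Whether 3 is many or few therefore cannot be told. OM66 (BCS1) had a log2FC of 2.73 in HM vs NM and -0.73 in HF vs NF (adjusted p = 1.00 for the difference, edgeR). MYB51, a factor of indole glucosinolate synthesis, had 1.81 and -0.59 (edgeR, adjusted p = 1.00), and the ethylene receptor gene ERS1 had 0.19 and -0.15 (edgeR, adjusted p = 1.00). None of these 3 differences passed that test.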

How the results depend on the processing

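The 13 DEGs of HM vs NM became 0 without the replicate block (smallest adjusted p 0.0578) and 0 with robust estimation (0.0564; 1568 higher and 1155 lower at an unadjusted p under 0.05), 3 without the HF samples and 7 with library size only. They became 24 with at least 10 counts in every sample, 31 without a filter, 38 in HM and NM samples only, 165 with DESeq2 on those samples without the block and 678 with it, and 475 with DESeq2 on all samples. With 1 sample or 1 replicate number left out the count ranged from 0 to 106. It was 0 without HM replicate 1, HM replicate 3, any NM sample or replicate number 1 or 3, and 21 without replicate number 2. The same 13 genes were kept with DESeq2 and the block, with DESeq2's size factors, without HM replicate 2 and with either count filter, 9 were kept in HM and NM samples only, and 1 without the HF samples. HF vs NF had 21 DEGs, 0 without the block, 12 with robust estimation, 376 with DESeq2 and 0 to 61 with samples left out. The difference between both contrasts had 0 genes and 7 with DESeq2 and the block. The core hypoxia median of 1.79 ranged from 1.34 to 2.33 over all alternatives. Of 845 values of named genes under an alternative 0 reversed, 146 lost and 130 gained an unadjusted p under 0.05 or their call, and 35 of 500 list medians moved by more than the spread, in 11 of 25 lists. The cause of these changes was not tested. Total counts were nearly equal in all samples, and no alternative varied depth.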

Other observations

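Other short motifs were counted in the same 300 bases upstream of each tested gene, on both strands, as a description. The letters ACGCG, the core bound by calmodulin-binding transcription activators, were found in 13% of the 1576 genes higher at an unadjusted p under 0.05, in 6.89% of the 1176 lower genes and in 8.47% of all promoters. The GCC box GCCGCC, bound by ethylene response factors, was found in 4.06%, 1.19% and 2.42%. The core of the heat shock element, GAA and TTC with 2 bases between, was found in 13.2%, 8.76% and 11.3%, and in 7 of 21 tested heat shock genes (33.3%). The G-box CACGTG was found in 9.26%, 7.65% and 7.92%. Genes within each group are not independent, and no test was made.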
